A study of Homo sapiens with 12 samples.

Results

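KRT19, 7 other keratin genes and vimentin were compared between parental cells and cabozantinib-resistant cells of Caki-1, a cell line established from a human kidney cancer (renal cell carcinoma). The genes were taken by symbol from the deposited RNA tables: KRT10, KRT18 and KRT19 (type I keratins), KRT7, KRT8, KRT80, KRT81 and KRT86 (type II keratins) and VIM (vimentin, type III). These are 9 of the 20114 gene symbols in the tables, and all 9 passed the filter on low counts that left 12792 genes for testing. They were chosen by their measured RNA counts and TPM with the difference between the lines already known, so their levels, differences and calls are given as a description and support nothing. For KRT19 the H3K27ac peaks in a window of 70 kb on chromosome 17 (hg19) were listed as well.

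Intermediate filaments are the tough, rope-like part of the cytoskeleton. Keratin filaments are built from pairs of 1 type I and 1 type II chain, and a chain that finds no partner is usually degraded, whereas vimentin can form filaments on its own. Simple epithelia such as kidney tubules mainly use KRT8 with KRT18, joined by KRT7 and KRT19 in duct-like and collecting epithelia. Vimentin is typical of mesenchymal cells and is also commonly found in clear cell renal carcinoma, which is why the keratins and vimentin are often read side by side in this tumour.

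The parental group was wild-type Caki-1 kept in RPMI medium with 10% serum. The resistant group was Caki-1 grown in McCoy's 5A medium with cabozantinib, an inhibitor of MET, AXL and VEGF receptor kinases, raised from 5 µM to 20 µM over 2 months and then held at 10 µM. Each line gave 2 RNA libraries and 2 libraries of H3K27ac, a histone acetylation of active promoters and enhancers, and the labels name no separate cultures, so the spread between libraries may be technical. Drug, medium and selection cannot be told apart in this design.

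RNA libraries held between 10584085 and 14664712 estimated counts. The parental pair was close to sampling noise (chi-square statistic 1.95 per gene), and the resistant pair was far from it (49.1 per gene), so the resistant libraries stand apart from each other. Among markers of the line, PAX8, a transcription factor of the renal lineage, was at 557 and 572 CPM (counts scaled to a common library size with TMM factors) in the parental libraries and at 352 and 427 CPM in the resistant libraries, without overlap but not past the threshold (adjusted p = 0.104). CDH2 (N-cadherin), an adhesion protein, was the 1 marker of the 7 tested in this list that was called, and it fell from 78.9 and 80.5 to 48.1 and 35.7 CPM (log2 fold change -0.93, adjusted p = 0.0452). That call ended without either parental library. Fits with 1 parental library, here and below, take its spread from the resistant pair, which stands far apart, and call fewer genes. A call lost there is therefore a weak sign against a gene. The part of these markers in the keratin values was not tested. PAX2 had 0 counts in every library and CA9 between 0 and 14. EPCAM and CDH1, surface proteins of epithelial cells, had between 12 and 72 counts. Of 11 measured markers of blood, endothelial and stromal cells, CD3E and CDH5 had 0 counts in all 4 libraries and PTPRC at most 1. Stromal markers were detected, with 230 to 299 counts for PDGFRB, 98 to 236 for COL1A1 and 30 to 137 for LUM. The summed level of these 11 was 26.1 TPM and 29.6 TPM (a level scaled for transcript length and for the library's total) in the parental pair and 10.1 and 10.4 TPM in the resistant pair. Of the 4 that passed the filter, DCN, a matrix proteoglycan of stromal cells, was the 1 called (log2 fold change -4.24, adjusted p = 0.0129). LUM, COL1A1 and PDGFRB were also lower (log2 fold changes -1.80, -1.15 and -0.28) and did not pass. Among all genes tested 6.37% were called in either direction. The part of these stromal markers in the keratin values was not tested.

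KRT19 was the member that differed most. It is the smallest keratin and lacks most of the usual tail domain. Its level was 188 and 176 TPM in the 2 parental libraries and 4.89 and 9.13 TPM in the 2 resistant libraries, resting on 1683, 1591, 58 and 118 counts. Both resistant libraries lay far below both parental ones, and resistant replicate 2 stood above resistant replicate 1. The mean TPM was 182 ± 8.48 (SD, n = 2) in the parental and 7.01 ± 3.0 in the resistant line, 25.9-fold lower in the resistant line, and the log2 fold change in normalised read counts was -4.64 ± 0.40 (SE). By TPM KRT19 ranked 651 and 687 among all 20114 symbols in the parental pair, and 9513 and 6956 in the resistant pair. Only 39 of the 12792 genes tested had a more negative log2 fold change, and 0 of these had a mean abundance as high as that of KRT19, a level that 2484 genes reached. Fewer cells with KRT19 mRNA and less KRT19 mRNA in each cell cannot be told apart in bulk RNA.

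**Figure D1:**
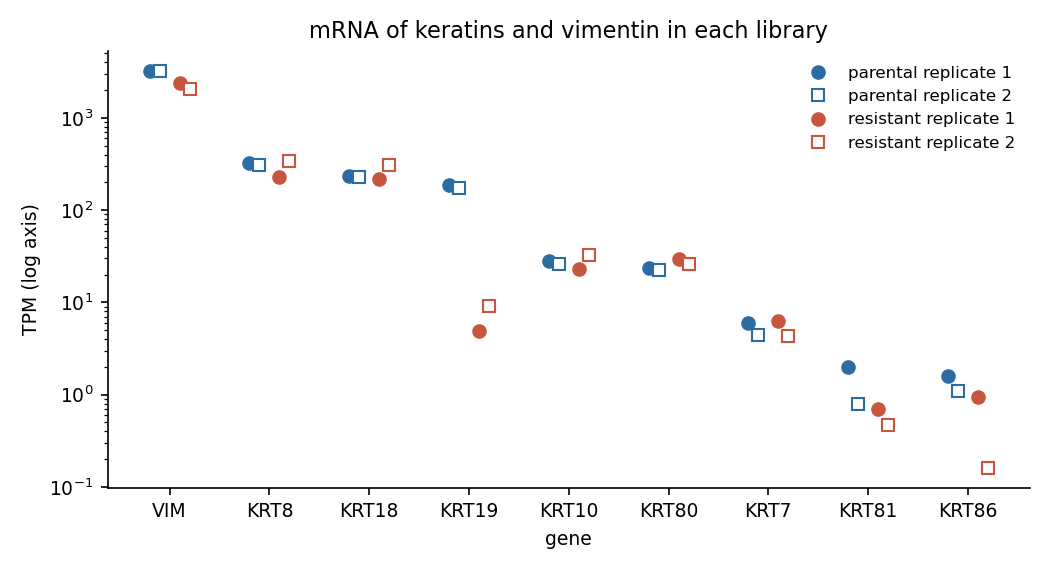
TPM on a log axis for each of the 9 genes, 1 point per library, filled circles for replicate 1 and open squares for replicate 2, blue for parental and red for resistant. The KRT19 points sit at 188 and 176 TPM in the parental and at 4.89 and 9.13 TPM in the resistant libraries, while the points of the other abundant keratins stay at similar heights in both lines.

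KRT18, the main type I keratin of simple epithelia, was at 233 and 228 TPM in the parental libraries and at 219 and 312 TPM in the resistant libraries. Resistant replicate 1 lay below both parental libraries and resistant replicate 2 above both, so the lines overlapped. Its log2 fold change was 0.29 ± 0.26 (SE). KRT10, a type I keratin best known from the upper layers of the skin, was at 28.3 and 26.0 TPM in the parental and at 23.03 and 32.42 TPM in the resistant libraries, again with the parental values in between, and with a log2 fold change of 0.11 ± 0.27.

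The make-up of type I keratin mRNA differed between the lines. Of the summed TPM of KRT10, KRT18 and KRT19, KRT19 made up 41.8% and 40.9% in the parental pair and 1.98% and 2.59% in the resistant pair. KRT18 made up 51.9% and 53.0%, then 88.7% and 88.2%. KRT10 went from 6.30% and 6.05% to 9.33% and 9.18%. These shares differed little within each line, also in the resistant pair whose single levels did not match. The higher shares of KRT18 and KRT10 follow from the lower KRT19 level, since their own levels overlapped between the lines. KRT19 was chosen for its difference, so the shares restate that difference and nothing further is read from them.

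**Figure D2:**
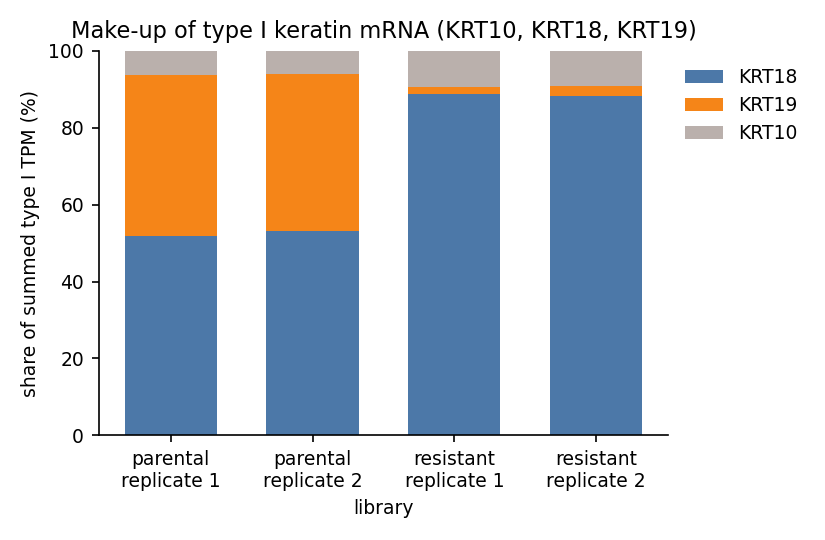
Stacked bars show the percentage of summed type I TPM held by KRT18, KRT19 and KRT10 in each of the 4 RNA libraries. The KRT19 segment takes 41.8% and 40.9% in the parental pair and 1.98% and 2.59% in the resistant pair.

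KRT8, the type II partner of KRT18, was the most abundant keratin. It was at 321 and 308 TPM in the parental libraries and at 229 and 339 TPM in the resistant ones. Like KRT18 and KRT10, it was lowest in resistant replicate 1 and highest in resistant replicate 2, and the lines overlapped. The log2 fold change was -0.06 ± 0.28 (SE), and its sign turned to 0.01 when library totals replaced TMM scaling. The ratio of KRT8 to KRT18 in TPM was 1.37 and 1.35 in the parental pair and 1.05 and 1.09 in the resistant pair. This ratio did not overlap between the lines, although both genes did. The CPM values of the lines did not overlap for 60.6% of all genes tested. The share over ratios of genes was not determined, so nothing is read from this ratio.

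KRT80, a type II keratin of many epithelia, was at 23.5 and 22.4 TPM in the parental and 29.7 and 25.9 TPM in the resistant libraries. Both resistant libraries lay above both parental ones (log2 fold change 0.33 ± 0.14, SE, adjusted p = 0.201). KRT80 did not pass in any fit with both resistant libraries. Its log2 fold change was 0.37 without resistant replicate 1 and 0.28 without resistant replicate 2. KRT7, a type II keratin of ducts and glands, was at 5.96 and 4.48 TPM and then at 6.21 and 4.36 TPM, and the lines overlapped fully (log2 fold change 0.06 ± 0.27).

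KRT81 and KRT86, hair keratins of type II, were the scarcest members. KRT81 was at 2.00 and 0.80 TPM in the parental pair and 0.69 and 0.47 TPM in the resistant ones, and KRT86 at 1.59 and 1.09, then 0.94 and 0.16 TPM. All 4 resistant values lay below the parental values of the same gene. Their estimated counts were fractional in the parental libraries, 26.68 and 23.32 in replicate 1 and 10.86 and 16.14 in replicate 2, yet added up to whole numbers of 50 and 27, which shows reads divided between the pair. Each of these levels is therefore uncertain, and the sum is the safer value: 50, 27, 28 and 12 counts in the 2 parental and 2 resistant libraries, with 27 and 28 nearly equal across the lines.

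Summed over the 5 type II members, keratin mRNA was 354 and 336 TPM in the parental libraries and 267 and 369 TPM in the resistant libraries, and over the 3 type I members 449 and 430 TPM and then 247 and 353 TPM. Type I lay below the parental range in both resistant libraries, while type II lay on both sides of it. The ratio of type II to type I TPM was 0.787 and 0.783 in the parental and 1.08 and 1.05 in the resistant libraries. In the parental line the type I sum was the larger one and in the resistant line the type II sum was. With KRT19 left out of the type I sum the ratio moved the other way, from 1.35 and 1.33 to 1.10 and 1.07, so the change of order rests on KRT19, the member chosen for its difference.

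Vimentin, the only type III member, stood far above every keratin. VIM was at 3259 and 3225 TPM in the parental and 2390 and 2084 TPM in the resistant libraries, and both resistant libraries lay below both parental ones. The resistant mean was 0.69 of the parental mean, with a log2 fold change of -0.48 ± 0.15 (SE) in normalised read counts, and its adjusted p of 0.110 did not pass. It passed without resistant replicate 1 (adjusted p = 0.000858) or without resistant replicate 2 (adjusted p = 0.00069), but there the lone resistant library is taken to vary like the close parental pair, and 52.8% and 35.1% of all genes passed. VIM mRNA was 4.06 and 4.21 times the summed keratin members in the parental pair and 4.65 and 2.88 times in the resistant ones, so this ratio overlapped between the lines.

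Ordered by TPM, the parental line had VIM first, then KRT8, KRT18, KRT19, KRT10, KRT80 and KRT7, and each of these neighbours was separated in both libraries, while KRT81 and KRT86 overlapped. In the resistant line KRT19, in the fourth place in the parental line, stood at a level that overlapped with KRT7. KRT8 stood above KRT18 in each resistant library, although their ranges overlapped there, while KRT80 and KRT10 changed places between the resistant libraries.

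edgeR's quasi-likelihood test over all genes called 1 of the 9 members, KRT19, lower at an adjusted p under 0.05, and 0 higher. Among all genes tested 6.37% were called, 3.41% lower and 2.96% higher. At an unadjusted p under 0.05, 3 members were lower and 0 higher, against 13.6% and 13.4% of all genes tested, and DESeq2 called 1 lower and 0 higher. The median log2 fold change was -0.06 over the members and 0.02 over all genes. In 5 members, KRT19, VIM, KRT80, KRT81 and KRT86, the normalised read counts of the 2 lines did not overlap, and the same held for 60.6% of all genes tested. Since the members were picked with this contrast known, nothing is read from these shares.

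**Figure D3:**
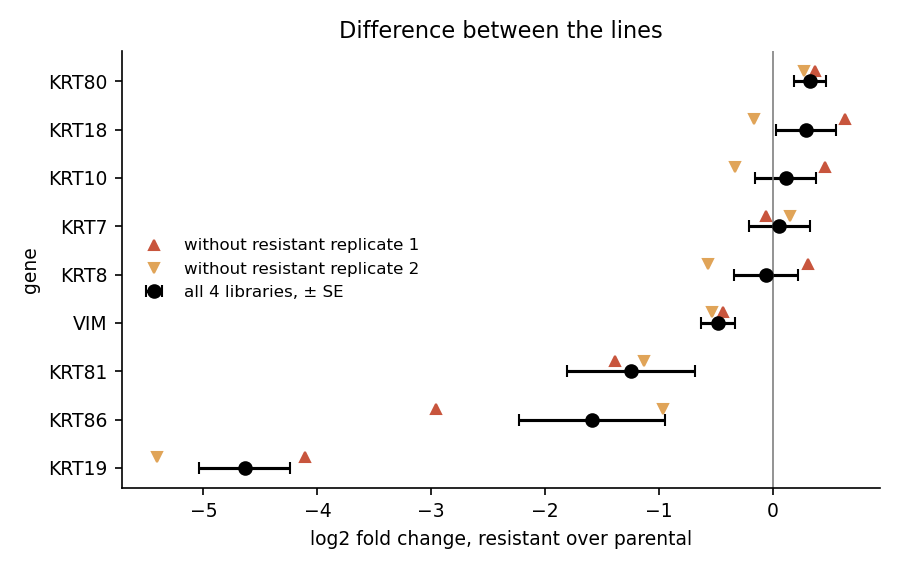
Log2 fold change of normalised read counts, resistant over parental, for each gene: black points with bars of ± 1 SE use all 4 libraries, and triangles leave out 1 resistant library. KRT19 lies at -4.64 and stays below -4 with either resistant library left out, while KRT7, KRT8, KRT10 and KRT18 change sides of 0.

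The resistant libraries differed from each other in a way shared by several keratins. In normalised read counts (CPM) resistant replicate 2 over replicate 1 was 1.82 for KRT8, 1.73 for KRT18, 1.72 for KRT10 and 2.44 for KRT19. It was 1.06 for both KRT80 and VIM and 0.86 for KRT7. The scarce KRT81 and KRT86 went the other way, at 0.83 and 0.24. Such a ratio was not confined to keratins, since HSPB1, a heat shock protein, was at 1.93, and its share over all genes was not determined. With either resistant library left out, the log2 fold changes of KRT8 were 0.31 and -0.57, those of KRT18 0.64 and -0.17, and those of KRT10 0.46 and -0.34. The direction of these 3 genes depended on which resistant library was used. No test is read from fits with 1 resistant library, since they take its spread from the close parental pair and call 52.8% of all genes without resistant replicate 1 and 35.1% without resistant replicate 2. That of KRT19 did not, at -4.11 without resistant replicate 1 and -5.41 without resistant replicate 2.

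RefSeq start regions (GRCh38.p14) were matched for KRT8, KRT10 and VIM, 3 of the 9 members, and are shown as the sequence context of the most abundant keratin, a type I keratin and vimentin. Each runs over the 250 bases before the first base of the RefSeq gene, 5′ to 3′ on the strand of the gene. Capitals mark matches on either strand to any of 4 motifs that do not overlap here. The first is the TATA box, searched as TATAAA. The second is the GC box bound by SP1, searched as GGGCGG. The third is the AP-1 motif, searched as TGANTCA. The last is the box bound by NF-Y, searched as CCAAT.
KRT8, chr12:52926470-52926719, minus strand: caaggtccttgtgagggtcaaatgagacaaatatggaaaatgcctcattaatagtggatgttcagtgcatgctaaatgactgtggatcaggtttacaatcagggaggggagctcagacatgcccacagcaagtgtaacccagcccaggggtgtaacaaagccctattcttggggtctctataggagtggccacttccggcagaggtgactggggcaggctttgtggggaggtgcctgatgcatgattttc
KRT10, chr17:40822615-40822864, minus strand: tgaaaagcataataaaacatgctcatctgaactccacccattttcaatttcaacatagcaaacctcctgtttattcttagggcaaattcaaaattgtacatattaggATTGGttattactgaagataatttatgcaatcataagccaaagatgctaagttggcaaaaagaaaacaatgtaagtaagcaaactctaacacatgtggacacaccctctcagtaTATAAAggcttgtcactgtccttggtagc
VIM, chr10:17227991-17228240, plus strand: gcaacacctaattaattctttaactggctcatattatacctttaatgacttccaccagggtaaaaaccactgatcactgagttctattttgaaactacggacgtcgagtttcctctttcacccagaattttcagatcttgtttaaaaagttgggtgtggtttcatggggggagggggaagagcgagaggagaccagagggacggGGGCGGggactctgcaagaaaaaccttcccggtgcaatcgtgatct
The KRT8 window held none of the 4 motifs. KRT10 had 1 TATA box, which starts 29 bases before the gene, and 1 CCAAT box on the opposite strand, and VIM had 1 GC box. None of the 3 windows held the AP-1 letters. Of 35116 RefSeq windows of the same length, 10.7% held the TATA box, 42.6% the GC box, 6.57% the AP-1 motif and 32.0% the CCAAT box. A match is a run of letters and not a shown binding site, and whether these starts are the ones used in Caki-1 was not tested. Start regions of KRT7, KRT18, KRT19, KRT80, KRT81 and KRT86 were not used here.

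The remaining keratin family was nearly silent. Of 47 other keratin genes in the tables, 31 had 0 counts in all 4 libraries, among them KRT5 and KRT14, the pair of basal epithelial cells, and 4 passed the filter. KRT34 and KRT33B, type I hair keratins that lie in the same gene cluster as KRT19, were called lower, and the other 2 tested were not called. Over all genes tested 3.41% were called lower. KRT34 went from 4.03 ± 1.18 to 0.52 ± 0.08 CPM (SD, n = 2, adjusted p = 0.0227), and KRT33B from 1.41 ± 0.20 to 0.17 ± 0.03 CPM (adjusted p = 0.0404). Both reached the filter level of 0.853 CPM in parental libraries only, and KRT33B rests on 34 counts in all. They entered the test only through the line where they are high, so nothing is read from their fall. The call of KRT33B ended without parental replicate 1 (adjusted p = 0.144), without parental replicate 2 (0.271) and with DESeq2 (0.0921), and that of KRT34 without parental replicate 1 (0.0567). KRT15 was at 6.13 and 8.43, then 4.85 and 4.51 CPM (adjusted p = 0.202), and KRT222 at 0.58 and 0.97, then 1.75 and 3.42 CPM (adjusted p = 0.114).

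By gene order in RefSeq (GRCh38.p14, used for order only), 12 protein-coding genes surround KRT19, 6 on each side, and 2 of them passed the filter. These were KRT15, directly beside it, and EIF1, a translation initiation factor, at 632 and 641 CPM in the parental and 642 and 715 CPM in the resistant libraries (log2 fold change 0.09 ± 0.14, SE, adjusted p = 0.715). Neither was called. The other 10 neighbours, mostly keratins, had at most 5 counts in any library.

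H3K27ac peaks were present at the KRT19 window in both lines. The window of 70 kb held 14 and 9 peaks in the parental lists and 10 and 11 in the resistant lists, and these merged into 12 regions where peaks overlapped by 1 bp or more. Of the 12 regions 5 held a peak in all 4 libraries, and genome-wide 22.0% of 89076 regions did. In the window 1 region held a peak in both parental and neither resistant library (3.92% genome-wide) and 0 the reverse (3.43% genome-wide). Peaks covered 23.3% and 21.4% of the window in the parental lists and 12.6% and 19.8% in the resistant libraries. Resistant replicate 1, which had the lowest KRT19 mRNA under the same replicate number, had the least cover, but RNA and H3K27ac libraries of the same number are not stated to be the same cells, and the peak names of the 2 resistant lists carry different cell tags whose meaning is not stated. That list also covered the least of the whole genome (45956 kb against 56331 to 86832 kb).

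The best-scored peak of the window lay in region 6 in 3 of the 4 libraries, chr17:39676938-39680848 (hg19), which held a peak in every library. The authors' score, whose meaning no label or header states, can be read only within a list. By that score its best peak ranked 3428 of 54810 and 2823 of 57975 in the parental lists, 21520 of 52367 in resistant replicate 1 and 2988 of 52856 in resistant replicate 2. It was thus among the stronger peaks of 3 lists and in the middle of the list of resistant replicate 1, and the 2 resistant lists did not share a pattern. The covered length in region 6 was 3831 and 2653 bp in the parental lists and 1720 and 2381 bp in the resistant ones.

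Region 7, chr17:39683774-39687422, also had peaks in every library, and its best ranks were 16926 and 12267 in the parental and 20076 and 10056 in the resistant lists. Region 12, chr17:39707874-39708392, was the region found in both parental lists alone, with scores of 5.76 and 8.36 and ranks of 31783 and 21124, so it was a weak to middling peak. Region 11, chr17:39703230-39705717, had peaks in every library and stood higher within the resistant lists, at percentiles of 67.1 and 77.7 in the parental and 83.4 and 82.0 in the resistant lists. Region 10, chr17:39694132-39696981, was missing from resistant replicate 1 only. Which region holds the KRT19 start was not determined, because no gene annotation in hg19 was used here and no coordinates were converted.

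**Figure D4:**
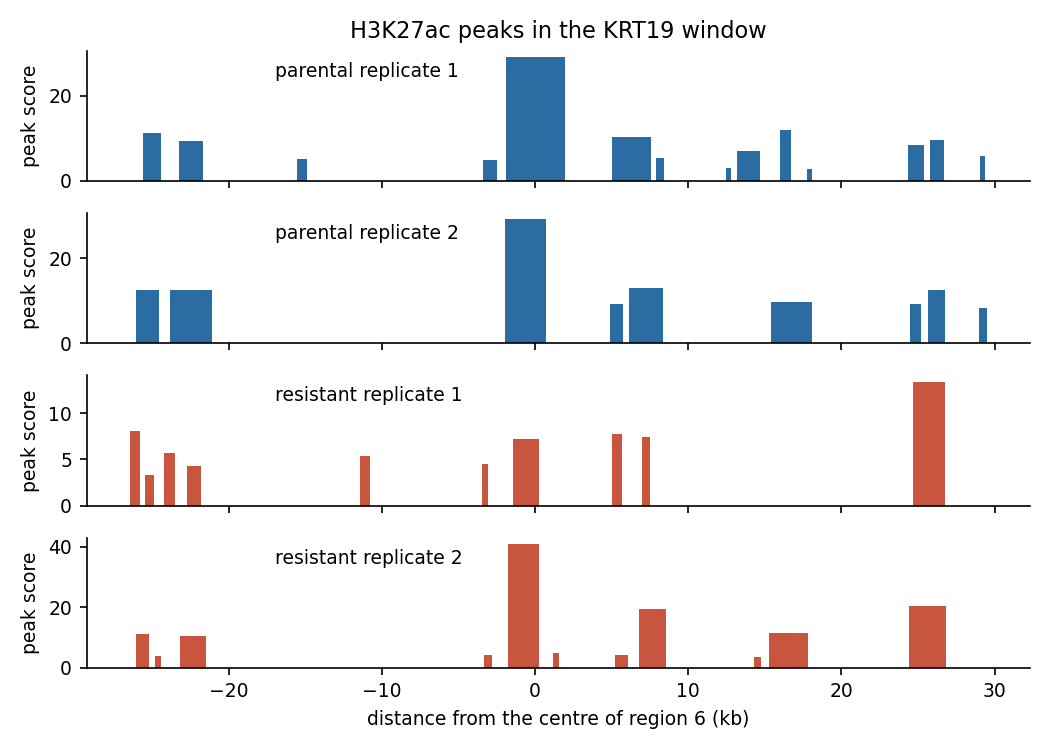
H3K27ac peaks in the KRT19 window, 1 panel per library, with distance from the centre of region 6 (kb) across and the authors' peak score upward; each panel has its own scale, since scores are read within a list only. A peak at 0 kb is present in all 4 libraries and is the tallest of the window in 3 of them, while in resistant replicate 1 the tallest lies in region 11, to the right.

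Proteins that tie filaments to junctions included genes called in both directions. Of 13 tested filament linkers and desmosomal anchors 4 fell, 1 rose and 8 did not pass, where 6.37% of all genes tested were called, with a median log2 fold change of -0.31 against 0.02 over all genes. EVPL (envoplakin), a plakin that binds keratins at the cell border, fell from 6.13 and 4.17 CPM to 0.32 and 0.08 CPM (adjusted p = 0.0144). It reached the filter level in parental libraries only. EVPL thus entered the test only through the line where it is high, so nothing is read from its fall or its place among the 4. PPL (periplakin), its partner, rose from 11.5 ± 0.65 to 44.9 ± 3.36 CPM (SD, n = 2), with both resistant libraries above both parental ones (log2 fold change 1.97 ± 0.17, SE, adjusted p = 0.00578). DSP (desmoplakin), which anchors keratin filaments to desmosomes, fell with a log2 fold change of -1.84 ± 0.29 (adjusted p = 0.0239). PKP2 and PKP3, plakophilins of the desmosome plaque, fell with log2 fold changes of -1.04 and -0.95 (adjusted p = 0.0471 and 0.0477). For both EVPL and PPL the resistant libraries lay outside the parental range, as they did for 60.6% of all genes tested, and the EVPL values in the resistant line rest on 5 and 1 counts.

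The calls in this list were uneven. Without parental replicate 1 the adjusted p was 0.401 for PKP2 and 0.299 for PKP3, and without parental replicate 2 it was 0.191 and 0.322. DSP did not pass without parental replicate 2 (0.0779). PLEC (plectin) had the highest CPM of the linkers, a value not scaled for transcript length, and was not the highest by TPM. It was at 928 and 864, then 1185 and 804 CPM, and the lines overlapped (adjusted p = 0.683).

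**Figure D5:**
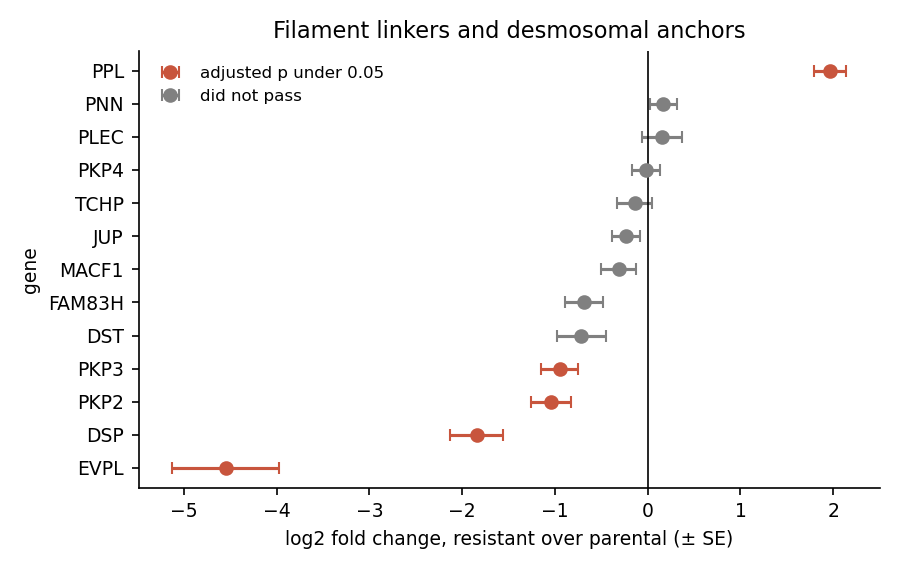
Log2 fold change (resistant over parental, ± SE) of the 13 tested filament linkers and desmosomal anchors, red where the adjusted p was under 0.05 and grey where it did not pass. EVPL, which entered the test only through the parental line, lies far to the left. PPL is the only red point to the right of 0, and DSP, PKP2 and PKP3 lie between EVPL and 0.

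Of 9 tested intermediate filament genes outside keratins and vimentin, 0 were called with edgeR or DESeq2, where edgeR called 6.37% of all genes tested. An unadjusted p under 0.05 was found for 4 of the 9, and for 3455 of all 12792 genes tested (27%). The most abundant were nuclear lamins. LMNA (lamins A and C) was at 619 and 613, then 778 and 869 CPM, and LMNB2 at 132 and 137, then 165 and 199 CPM. In both, the resistant libraries lay above the parental ones (adjusted p = 0.138 and 0.142). The median log2 fold change of this list was 0.66, and it includes genes with few counts such as GFAP and NEFM, which reached the filter level in 1 line only.

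Among 22 tested chaperones, kinases and adaptors that bind or modify these filaments, 1 fell and 0 rose. Over all genes tested 3.41% were called lower and 2.96% higher. DESeq2 called 2 of the 22 lower and 2 higher. An unadjusted p under 0.05 was found for 7 of the 22, against 27% of all genes tested, and the median log2 fold change was -0.03. The one that fell, YWHAG, a 14-3-3 adaptor protein, was at 269 and 261, then 167 and 127 CPM (adjusted p = 0.0474), and its call ended without parental replicate 1 (0.364) or 2 (0.316). HSPB1, a small heat shock protein that associates with filaments, was at 755 and 757, then 472 and 910 CPM (adjusted p = 0.812). It was low in resistant replicate 1 and high in resistant replicate 2, as KRT8 and KRT18 were. HSPB1 was named after its values were seen, and others of this list, such as YWHAG, were lower in resistant replicate 2. A link to the keratins was not tested.

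Of 17 tested transcription factors known to act on keratin or vimentin genes, 2 rose, 0 fell and 15 did not pass (median log2 fold change 0.08). Over all genes tested 2.96% were called higher and 3.41% lower. DESeq2 called 3 of these factors higher and 0 lower. An unadjusted p under 0.05 was found for 8 of the 17, against 27% of all genes tested. KLF4, a factor of epithelial differentiation, rose from 2.73 and 2.71 to 7.56 and 6.45 CPM (adjusted p = 0.0435), and CEBPB, a stress and differentiation factor, from 539 and 537 to 921 and 938 CPM (adjusted p = 0.0316). Without parental replicate 1 or 2 neither passed (adjusted p from 0.266 to 0.552). ELF3, an epithelial ETS factor, was at 170 and 165, then 151 and 202 CPM (adjusted p = 0.811).

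The genes with the pattern nearest to KRT19 were sought by the root mean square difference of log2(CPM + 0.5) values, centred on each gene's own mean, over the 4 RNA libraries and 11063 other genes whose mean log2 CPM was at least 2. TAGLN (transgelin), which binds actin and marks smooth muscle, was nearest at 0.138, with 119 and 107 CPM in the parental and 3.30 and 6.99 CPM in the resistant libraries. Like KRT19 it was higher in resistant replicate 2 than in replicate 1, which follows from its being picked by likeness over these same libraries. UNC13C, CLSTN2, SLC17A9 and IRX5 followed at 0.360 to 0.434. UNC13C had 0 and 1 counts in the resistant libraries, and SLC17A9 and IRX5 had 0 counts in both. For UNC13C, SLC17A9 and IRX5 the added 0.5 CPM limits how far the values can fall in this measure. Their fitted log2 fold changes were -8.34, -10.3 and -10.1, against -4.64 for KRT19, so nothing is read from their likeness. The 5 genes nearest to VIM were IQCG, NOTCH2NL, FN3K, KIF1C and MGAT1, at 0.0083 to 0.0155, and 0 of these were called (adjusted p from 0.091 to 0.234). They were picked for likeness to VIM, itself not called, so nothing is read from this. NOTCH2NL has near-identical copies, so its level is uncertain.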

How the data were processed

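RNA was measured in 2 parental and 2 resistant Caki-1 libraries and H3K27ac in 2 of each. The 4 input samples were left out. STAR, RSEM and DESeq2 1.40.2 are named in the submitters' processing notes, as are hg19 and GRCh38, with no role for either. The authors deposited RSEM estimated counts (expected counts) and TPM per gene symbol, and 1 peak list per library with a score whose caller and meaning no label or header states. Of the estimated counts 3.16% were fractional, and they were rounded to whole numbers. Peaks on chromosome 1 end at up to 249240417, so the deposited coordinates were read as hg19.

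Genes were kept with filterByExpr, scaled by TMM and fitted in edgeR 4.0.16 (under R 4.3.3) with its quasi-likelihood test, line as the only term, with Benjamini-Hochberg adjustment over 12792 genes at 0.05. The standard error is the log2 fold change divided by the square root of F. Depth was 10584085 to 14664712 counts, which leaves KRT81, KRT86 and KRT33B with under 30 counts a library. Alternatives were DESeq2 size factors, library totals, 2 other filters, DESeq2 1.42.0, limma 3.58.1 (voom, and trend on log2(TPM + 1) and log2(TPM + 0.1)), a replicate block, a stricter adjusted p (0.01) and omission of each library in turn. Peak regions were rebuilt with scores of at least 5, with merging within 500 bp, with 50% cover and without each library. The fit was tested on simulated data. The members, gene lists and tests were chosen with earlier results of these data known. Named genes were all members, at most 3 rises and 3 falls of each list or its 2 most abundant genes, and the 5 genes nearest to KRT19 and to VIM. Exceptions named after their values were seen are PKP3, PLEC, HSPB1, ELF3, KRT15, KRT222, the 2 tested neighbours of KRT19 and single markers. Figures used matplotlib 3.10.9.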

Additional observations from a re-analysis of the deposited data

How the results depend on the processing

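KRT19 was lower under all 14 alternatives run (log2 fold change from -5.41 to -4.11), and past its threshold under all 10 that kept every library. VIM was below 0 in all 14 and KRT80 above 0 in all 14, and neither passed in a fit with both resistant libraries. Among fits with both resistant libraries KRT86 passed only with the replicate block (adjusted p = 0.0424). No call of any of these genes, KRT19 included, is read from fits with 1 resistant library, which take its spread from the close parental pair. With library totals the sign turned for KRT8 (0.011). Leaving out 1 library in turn, the log2 fold change ranged from -0.57 to 0.31 for KRT8, -0.14 to 0.26 for KRT7, -0.34 to 0.46 for KRT10, -0.17 to 0.64 for KRT18, -0.15 to 0.40 for PLEC and -0.16 to 0.28 for ELF3. Over all genes, 379 were called higher and 436 lower. The counts were 577 and 715 with DESeq2, 243 and 282 with limma-trend on log2(TPM + 1), 217 and 243 on log2(TPM + 0.1), 24 and 73 at an adjusted p under 0.01, and 531 and 373 with library totals. Leaving out 1 library gave 141 to 3374 higher and 264 to 3479 lower. For the members these ranges were 0 to 4 higher and 1 to 5 lower, for other type I keratins 0 to 1 and 0 to 2, for linkers 1 to 2 and 1 to 8, for partners 0 to 8 and 0 to 8, for transcription factors 0 to 7 and 1 to 7, and for other filament genes 0 to 6 higher. Other type I keratins called lower (2) were 1 without a filter, with DESeq2 and with both limma-trend fits, and 0 with genes of mean log2 CPM under 2 left out and at 0.01. Linkers called lower (4) were 2 with library totals, 1 with genes of mean log2 CPM under 2 left out, and 0 with both limma-trend fits and at 0.01. Partners called higher (0) were 2 with library totals and with DESeq2, and those called lower (1) were 2 with DESeq2 and 0 with library totals, with genes of mean log2 CPM under 2 left out, with voom, with both limma-trend fits and at 0.01. Transcription factors called higher (2) were 4 with library totals, 1 with voom and with both limma-trend fits, and 0 at 0.01. In the KRT19 window 5 regions had peaks in all libraries, and 2 did where a peak had to cover 50% of the region. Leaving out 1 peak list gave 5 to 6 such regions, 1 to 3 in parental lists only and 0 to 1 in resistant lists only. Parental and resistant libraries share only a replicate number, and same-numbered libraries did not deviate together (r = -0.0478 over 12792 genes). With the replicate block 860 genes were called higher and 1020 lower, 2 members lower, 1 other type I keratin higher, 2 other filament genes higher, 3 partners higher and 3 lower, and 2 transcription factors lower. KRT81, KRT86 and KRT33B are limited by depth.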
